A study of Arabidopsis thaliana with 12 samples.

Results

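RCA, PRK and SBPASE are nuclear genes for enzymes of photosynthetic carbon fixation in the chloroplast. They were chosen by locus, with earlier results of these data known. Counts of called genes among them, set beside the share of all probe sets, are therefore a description and not a test. The probe table of the array design gives each of them 1 probe set of its own. So 3 of the 13286 genes with such a probe set, and 3 probe sets out of 22746, are described here. RCA (AT2G39730) lies on chromosome 2 from 16570746 to 16573692, PRK (AT1G32060) on chromosome 1 from 11532199 to 11534639, and SBPASE (AT3G55800) on chromosome 3 from 20709294 to 20711640, as gene spans of the TAIR10.1 annotation. The signals come from 12 Affymetrix ATH1 arrays, on which short oligonucleotides of a probe set report 1 transcript, hybridised with total RNA of whole Arabidopsis thaliana seedlings 8 days old. There were 4 groups of 3 biological replicates. FUS3 without sucrose and FUS3 with sucrose are line 2-8 (ESTpro:FUS3-strong), which expresses the seed transcription factor FUSCA3 (FUS3) from an estradiol-inducible transgene and was germinated with 5 µM estradiol. WT without sucrose and WT with sucrose are wild-type seedlings. Groups with sucrose had 1.5% of it in the medium. Estradiol is labelled for line 2-8 alone although the study design describes induction for WT too, so whether WT received it is not settled. FUS3 is represented by 1 line, and its effect and that of the line cannot be told apart.

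The Calvin cycle fixes carbon dioxide with the enzyme Rubisco, reduces the product to triose phosphate and regenerates the acceptor, ribulose bisphosphate. RCA encodes Rubisco activase, an ATP-driven protein that frees Rubisco of tightly bound sugar phosphates. SBPASE encodes sedoheptulose-bisphosphatase, which commits carbon to regeneration of the acceptor, and PRK encodes phosphoribulokinase, which carries out the last step of that regeneration. PRK and SBPASE are switched on in the light through thioredoxins. Sugars are known to lower transcripts of photosynthesis genes in many plants, and seeds lose their photosynthetic apparatus toward the end of maturation.

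All 3 transcripts were lowest in FUS3 seedlings on sucrose, and SBPASE was also higher in FUS3 seedlings without sucrose than in the WT groups. SBPASE read 9565, 8468 and 10061 in FUS3 with sucrose, against 16615, 17276 and 17306 in WT with sucrose. PRK read 16195, 14700 and 16555 in FUS3 with sucrose, against 25641, 25306 and 26621 in WT with sucrose. RCA read 29664, 28942 and 30171 in FUS3 with sucrose, against 38495, 41832 and 38230 in WT with sucrose. For each gene the highest array of FUS3 with sucrose lay below the lowest array of every other group. How many of all probe sets separate in this way was not counted. By the test described below, 19.6% of all probe sets were called lower in FUS3 with sucrose than in WT with sucrose. The shares were 17.5% against FUS3 without sucrose and 21% against WT without sucrose. The values of the arrays are MAS5 signals on a linear scale, as deposited, and signals of different genes are not compared because probe sets differ in brightness.

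**Figure D1:**
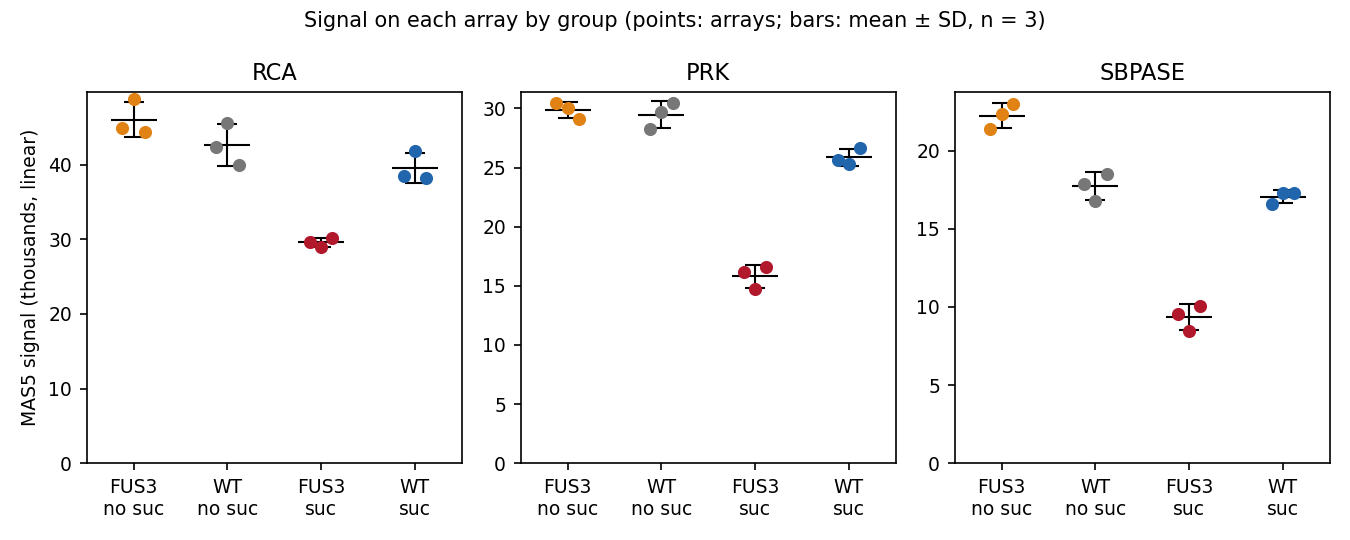
MAS5 signal (vertical axis, linear from 0, in the unit printed on it) of RCA, PRK and SBPASE on each of the 12 arrays, by group on the horizontal axis ("suc" is sucrose, "no suc" is none). Points are arrays and bars are mean ± SD of 3 arrays. FUS3 with sucrose lies below all other groups in each panel, and SBPASE in FUS3 without sucrose lies above them.

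The first comparison asked what FUS3 does on medium without sucrose. SBPASE rose, while RCA and PRK did not pass the test. SBPASE read 21378, 22345 and 22966 in FUS3 without sucrose, against 17897, 16758 and 18506 in WT without sucrose, and the groups did not overlap. The means were 22229 ± 800.2 in FUS3 and 17720 ± 888 in WT (SD, n = 3 each), a level 25.4% higher. Differences between groups were taken on log2 of the signal plus 16, with the standard error (SE) of a linear model of all arrays fitted in limma, and a gene was called at a Benjamini-Hochberg adjusted p under 0.05 over all 22746 probe sets. On that scale SBPASE rose by 0.33 (SE 0.08, adjusted p = 0.00946 by limma), and 4169 of the 22746 probe sets had a higher value.

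RCA read 44955, 48743 and 44413 in FUS3 without sucrose, against 42365, 45539 and 40002 in WT without sucrose, and these ranges overlapped. Its log2 difference was 0.11 (SE 0.08, adjusted p = 0.3999 by limma). PRK read 30475, 30025 and 29087 in FUS3 without sucrose, against 28227, 29664 and 30476 in WT without sucrose, and its ranges overlapped too. Its log2 difference was 0.02 (SE 0.07, adjusted p = 0.901 by limma), and it turned to -0.037 with quantile normalization and to -0.034 with array medians subtracted. Thus 1 of the 3 genes was called higher and 0 lower, where 9.5% of all probe sets were called higher and 7.03% lower.

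The second comparison put FUS3 against WT on sucrose. All 3 genes fell, where 19.6% of all probe sets were called lower and 18.9% higher. SBPASE fell most, to 9365 ± 816 in FUS3 with sucrose, against 17065 ± 391 in WT with sucrose (SD, n = 3 each), a level 45.1% lower and a log2 change of -0.87 (SE 0.08, adjusted p = 6.14e-07 by limma). PRK averaged 15817 ± 984 in FUS3 with sucrose and 25856 ± 683 in WT with sucrose, a level 38.8% lower and a log2 change of -0.71 (SE 0.07, adjusted p = 2.47e-06 by limma). RCA averaged 29592 ± 618 in FUS3 with sucrose and 39519 ± 2007 in WT with sucrose, a level 25.1% lower and a log2 change of -0.42 (SE 0.08, adjusted p = 7.87e-04 by limma). Of all 22746 probe sets, 1626 had a lower value than SBPASE in this comparison, 2284 a lower one than PRK, and 4502 a lower one than RCA.

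The third comparison asked what sucrose does to FUS3 seedlings. All 3 genes fell, where 17.5% of all probe sets were called lower and 21.8% higher. SBPASE fell to 42.1% of its mean without sucrose, with 9365 ± 816 in FUS3 with sucrose and 22229 ± 800.2 in FUS3 without sucrose, a log2 change of -1.25 (SE 0.08, adjusted p = 1.59e-08 by limma). Its value was below that of all but 631 probe sets. PRK fell to 53.0%, with 15817 ± 984 in FUS3 with sucrose and 29862 ± 708 in FUS3 without sucrose, a log2 change of -0.92 (SE 0.07, adjusted p = 1.76e-07 by limma). RCA fell to 64.3%, with 29592 ± 618 in FUS3 with sucrose and 46037 ± 2359 in FUS3 without sucrose, a log2 change of -0.64 (SE 0.08, adjusted p = 1.76e-05 by limma). The comparison shares the 3 arrays of FUS3 with sucrose with the second one, so the falls in both are not separate evidence.

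In WT, by contrast, none of the 3 genes was called for sucrose by limma, where 10.1% of all probe sets were called lower and 15.9% higher, and at an unadjusted p under 0.05 PRK alone passed. RCA averaged 39519 ± 2007 in WT with sucrose and 42635 ± 2778 in WT without sucrose, a log2 difference of -0.11 (SE 0.08, adjusted p = 0.371 by limma). PRK averaged 25856 ± 683 in WT with sucrose and 29456 ± 1139 in WT without sucrose, a log2 difference of -0.19 (SE 0.07, adjusted p = 0.0723 by limma), although its arrays did not overlap. SBPASE averaged 17065 ± 391 in WT with sucrose and 17720 ± 888 in WT without sucrose, a log2 difference of -0.05 (SE 0.08, adjusted p = 0.682 by limma). These small differences depend on the processing. PRK was called lower at the same -0.19 without the dimmest 40% of probe sets (adjusted p = 0.0281) and in a linear model without moderation (0.0259). With array medians subtracted RCA and PRK were called lower, at -0.26 (adjusted p = 0.0256) and -0.34 (adjusted p = 0.00274), while quantile normalization gave 0.057 for RCA, 0.068 for SBPASE and -0.068 for PRK, none of them called. A p that misses the threshold does not show that sucrose left these transcripts unchanged in WT.

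**Figure D2:**
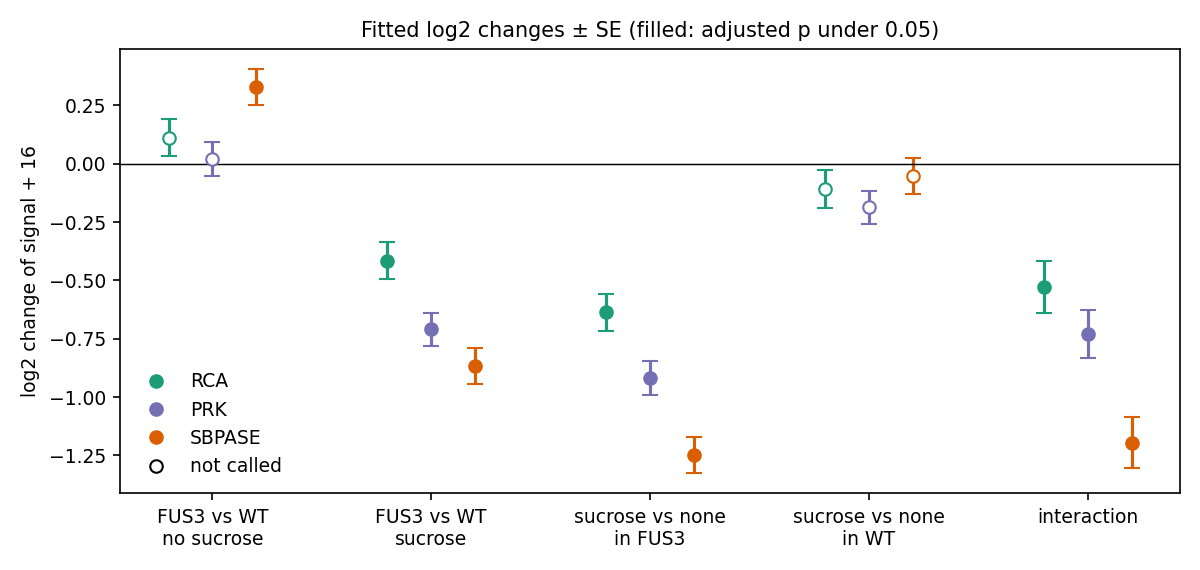
Fitted log2 change of signal + 16 (vertical axis) of RCA, PRK and SBPASE in 5 comparisons (horizontal axis), with bars of ± SE from the model of 12 arrays. Filled points have an adjusted p under 0.05, and the interaction is the FUS3 change with sucrose minus that without. All 3 genes lie below 0 and are called for FUS3 against WT with sucrose, for sucrose in FUS3 and for the interaction, and none is called for sucrose in WT.

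The design also asked whether the effect of FUS3 differs with sucrose, which the interaction tests directly: it is the FUS3 against WT change with sucrose minus that without. All 3 genes had a negative interaction, where 13.3% of all probe sets were called lower and 9.78% higher. It was -1.20 for SBPASE (SE 0.11, adjusted p = 2.69e-06 by limma), whose FUS3 change had opposite signs on the media. It was -0.73 for PRK (SE 0.10, adjusted p = 1.23e-04 by limma) and -0.53 for RCA (SE 0.11, adjusted p = 0.00347 by limma). In all 3 genes the fitted value in FUS3 with sucrose lay below what the separate changes by FUS3 and by sucrose would add up to on the log2 scale. Of all probe sets, 890 had a lower interaction than SBPASE, 2595 a lower one than PRK and 4036 a lower one than RCA.

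The order of the group means was the same for the 3 genes, with FUS3 without sucrose highest, then WT without sucrose, WT with sucrose and FUS3 with sucrose. Of the neighbours in that order, the last step was called for every gene, the first only for SBPASE, and the middle one for none. The order is that of the deposited signals, and uncalled steps changed sign with scaling. For PRK the first became -0.037 with quantile normalization and -0.034 with array medians subtracted. With quantile normalization, sucrose against none in WT became 0.057 for RCA and 0.068 for SBPASE. Across the order, FUS3 without sucrose stood above WT with sucrose by 0.38 for SBPASE (SE 0.08, adjusted p = 0.00340 by limma), where 7.53% of all probe sets were called higher and 10% lower. With quantile normalization that difference was 0.19 and was not called (adjusted p = 0.114 by limma). The same difference was 0.22 for RCA (SE 0.08, adjusted p = 0.0739 by limma) and 0.21 for PRK (SE 0.07, adjusted p = 0.0625 by limma), and neither passed. Both were called, however, with array medians subtracted (adjusted p = 0.0132 for RCA and 0.00899 for PRK), without the dimmest 40% of probe sets (0.0211 and 0.0238) and without moderation of the variances (0.0408 and 0.0262). FUS3 with sucrose stood below WT without sucrose by a log2 change of -0.92 for SBPASE, -0.90 for PRK and -0.52 for RCA, all 3 called (adjusted p of 1.75e-07, 1.20e-07 and 7.00e-05 by limma), where 21% of all probe sets were called lower and 26.7% higher. Between these groups PRK and SBPASE had nearly the same log2 change, whereas their changes differed more within each line and medium.

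The genes were next compared with each other within each array, since a difference between 2 genes on 1 array is almost free of the array's scaling. PRK minus RCA averaged -0.90 ± 0.06 in FUS3 with sucrose and -0.61 ± 0.10 in WT with sucrose, and -0.62 ± 0.07 in FUS3 without sucrose and -0.53 ± 0.12 in WT without sucrose (log2, SD, n = 3 each). The 3 arrays of FUS3 with sucrose lay from -0.98 to -0.87, below the other 9. SBPASE minus RCA averaged -1.66 ± 0.10 in FUS3 with sucrose and -1.21 ± 0.07 in WT with sucrose, and -1.05 ± 0.09 in FUS3 without sucrose and -1.27 ± 0.17 in WT without sucrose. Here too the 3 arrays of FUS3 with sucrose, from -1.77 to -1.58, lay below the other 9. On every array of that group RCA was thus higher relative to PRK and SBPASE than on any other array.

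SBPASE minus PRK set FUS3 without sucrose apart rather than FUS3 with sucrose. It averaged -0.43 ± 0.09 in FUS3 without sucrose and -0.73 ± 0.08 in WT without sucrose, and -0.76 ± 0.04 in FUS3 with sucrose and -0.60 ± 0.04 in WT with sucrose. The arrays of FUS3 without sucrose, from -0.51 to -0.34, lay above all others. Averaged over the other factor, 6 exact two-sided permutation tests of these differences gave no adjusted p under 0.05. The smallest were those of PRK minus RCA, at -0.19 for FUS3 against WT and -0.18 for sucrose against none (exact p = 0.025 and adjusted p = 0.075 for each, where 0.005 is the smallest p the arrangements allow). SBPASE minus RCA gave -0.28 for sucrose against none (exact p = 0.065, adjusted p = 0.13) and -0.12 for FUS3 against WT (exact p = 0.37, adjusted p = 0.395), and SBPASE minus PRK gave -0.10 (exact p = 0.265) and 0.07 (exact p = 0.395), both with an adjusted p of 0.395. These tests average over the other factor, and whether the interaction differs between the genes was not tested.

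**Figure D3:**
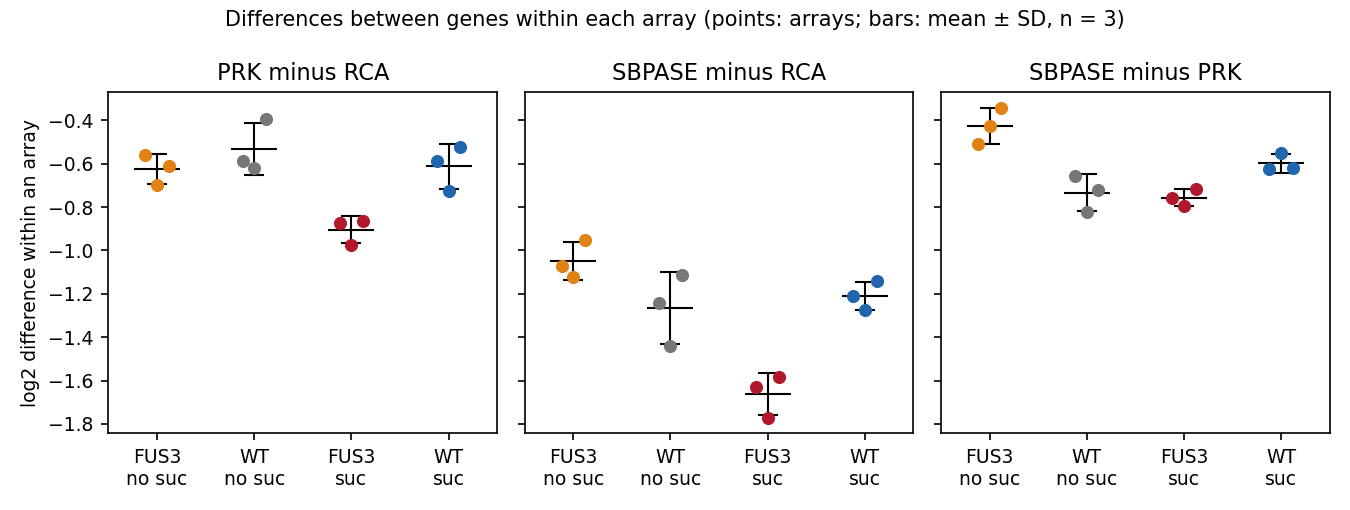
Log2 difference between 2 genes within an array (vertical axis) for PRK minus RCA, SBPASE minus RCA and SBPASE minus PRK, by group (horizontal axis, "suc" is sucrose). Points are arrays and bars are mean ± SD of 3 arrays. FUS3 with sucrose lies lowest in the panels against RCA, and FUS3 without sucrose lies highest in the panel of SBPASE minus PRK.

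All 3 probe sets are among the brightest on the arrays. By the mean signal of the 12 arrays, 7 probe sets were brighter than RCA, 67 brighter than PRK and 210 brighter than SBPASE. The highest signal on an array lay between 45566 and 59169, and RCA reached 48743. RCA, the gene nearest to the top of the scale, had the smallest of the 3 changes wherever all 3 were called lower. For sucrose in WT, where none was called, SBPASE had the smallest difference, at -0.05. The part of saturation in the size of the changes was not tested.

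Other genes of carbon fixation were read from lists drawn up from knowledge of the pathways, with earlier results of these data known. Their counts beside the share of all probe sets are likewise a description. Loci without a symbol in the tables used here are given by their locus alone. Of 20 further Calvin cycle loci 3 were measured, meaning that a probe set is assigned to that locus and to no other. All 3 fell in FUS3 against WT with sucrose, where 19.6% of all probe sets were called lower and 18.9% higher, with a median log2 change of -0.56, against 0.014 over all probe sets. The plastid-encoded rbcL, for the large subunit of Rubisco, fell by 1.38 (SE 0.23), to a mean of 2556 ± 283 in FUS3 with sucrose, against 6695 ± 746 in WT with sucrose. AT1G56190 fell by 0.56 (SE 0.07) with sucrose and rose by 0.48 (SE 0.07) without. AT5G64380 fell by 0.41 (SE 0.12) with sucrose, although this was not called when replicate 3 of WT with sucrose was left out (adjusted p of 0.0621 by limma), and had -0.52 (SE 0.12, called) without. Like SBPASE, AT1G56190 thus had FUS3 changes of opposite sign on the media, with an interaction of -1.03 (SE 0.10, adjusted p = 3.17e-06 by limma). The interaction of rbcL was -1.46 (SE 0.33, adjusted p = 0.00499 by limma), and that of AT5G64380, at 0.11 (SE 0.16), was not called.

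A second list held assembly and redox partners of Rubisco and of the regeneration enzymes, of which 8 of 21 loci were measured. In FUS3 against WT with sucrose 6 fell and 0 rose, with a median of -0.60 (all probe sets: 19.6% lower, 18.9% higher, median 0.014). TRXF2, for thioredoxin f, which activates Calvin cycle enzymes in the light, fell by 1.14 (SE 0.09), to 1908 ± 101 in FUS3 with sucrose, against 4210 ± 194 in WT with sucrose. AT3G48420 changed by -1.17 (SE 0.06), the m-type thioredoxin gene ATHM2 by -0.67 (SE 0.09), and NTRC, for a thioredoxin reductase fused to a thioredoxin, by -0.65 (SE 0.10). AT2G04700 changed by -0.55 (SE 0.06) and AT5G28500 by -0.38 (SE 0.09). Cpn60beta2, for a chaperonin subunit, had -0.22 (SE 0.09) and AT3G04550 had 0.14 (SE 0.08), and neither was called, but Cpn60beta2 was when replicate 2 of WT with sucrose was left out (adjusted p of 0.0137 by limma) and with array medians subtracted (0.0257).

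Without sucrose, 1 of these 8 loci rose in FUS3 and 0 fell, with a median of 0.017 (all probe sets: 9.5% higher, 7.03% lower, median 0.017). The one was Cpn60beta2, at 0.88 (SE 0.09), with 5406 ± 412 in FUS3 without sucrose and 2937 ± 179 in WT without sucrose. The interaction was called lower for 7 of the 8, against 13.3% of all probe sets, with a median of -0.72 and with TRXF2 at -1.14 (SE 0.12), and AT3G04550 at 0.11 (SE 0.12) was not called. In WT sucrose lowered 6 of the 8 loci, against 10.1% of all probe sets, with a median of -0.32, and raised Cpn60beta2 by 0.76 (SE 0.09). Of those 6, the calls of TRXF2 at -0.25 and ATHM2 at -0.33 were lost with quantile normalization (adjusted p = 0.104 and 0.161 by limma). The call of ATHM2 was also lost without replicate 1 or 2 of WT without sucrose (0.0863 and 0.0616), and that of TRXF2 was lost without each of 9 arrays (0.0516 to 0.184), without moderation (0.0848), without the variance trend (0.106) and with only the arrays compared (0.0637).

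Photorespiration recovers the carbon of phosphoglycolate, the product of Rubisco's reaction with oxygen, and 6 of 16 listed loci were measured. In FUS3 against WT with sucrose 5 fell and 1 rose, with a median of -0.76 (all probe sets: 19.6% lower, 18.9% higher, median 0.014). LrgB, for the plastid glycolate and glycerate transporter, fell by 1.32 (SE 0.08), HPR, for hydroxypyruvate reductase, by 0.86 (SE 0.08), AT1G11860 by 0.82 (SE 0.10) and AT1G32470 by 0.71 (SE 0.07). AT1G80380 fell by 0.38 (SE 0.13), which was no longer called without replicates 1, 2 or 3 of FUS3 with sucrose (adjusted p = 0.0561, 0.136 and 0.0522 by limma) or replicates 1 or 3 of WT with sucrose (0.147 and 0.162). That call was also lost with quantile normalization (0.0523), without moderation (0.105), without the variance trend (0.0804) and with only the arrays compared (0.103). The arrays of the 2 groups overlapped for this gene. AT2G35120 rose, by 0.77 (SE 0.09) with sucrose and by 0.56 (SE 0.09) without. The interaction was called lower for 4 of the 6, against 13.3% of all probe sets, with LrgB at -1.50 (SE 0.12), and was 0.21 (SE 0.13) for AT2G35120 and -0.16 (SE 0.19) for AT1G80380, neither called, though AT1G80380 was when replicate 2 of WT with sucrose was left out (adjusted p of 0.0301 by limma).

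Of 9 loci that turn triose phosphate into sucrose or starch, 2 were measured, and both fell in FUS3 with sucrose, where 19.6% of all probe sets did. ATSPS4F, for a sucrose-phosphate synthase, fell by 1.34 (SE 0.13) and AT2G35840 by 0.58 (SE 0.10). Neither was called without sucrose, at 0.24 (SE 0.13) and -0.16 (SE 0.10), where 9.5% of all probe sets were called higher and 7.03% lower. Both interactions were called, against 13.3% of all probe sets called lower, at -1.58 (SE 0.18) for ATSPS4F and -0.42 (SE 0.14) for AT2G35840. The second call was lost without each of 8 arrays (adjusted p = 0.0503 to 0.0994 by limma), without moderation (0.0732) and without the variance trend (0.0806). The oxidative pentose phosphate pathway, which shares sugar phosphates with the Calvin cycle but yields NADPH without light, had 4 of 11 loci measured. In FUS3 with sucrose 2 of them rose and 1 fell, with a median of 0.18, where 18.9% of all probe sets rose and 19.6% fell. AT5G41670 rose by 0.61 (SE 0.07) with sucrose and by 0.57 (SE 0.07) without. AT1G64190 rose by 0.27 (SE 0.09) with sucrose and by 0.34 (SE 0.09) without, with the first call lost without replicates 1 or 3 of FUS3 or of WT with sucrose (adjusted p = 0.0612 to 0.0964 by limma) and the second without replicates 1 or 2 of FUS3 or replicate 1 of WT without sucrose (0.0522 to 0.0808). Both were lost without the variance trend (0.0652 and 0.0541), and the first also with array medians subtracted (0.0573) and without moderation (0.0543). AT1G12230 fell by 0.26 (SE 0.08) with sucrose. Leaving out replicate 2 of FUS3 (adjusted p of 0.0671 by limma), replicate 3 of WT (0.0982) or the variance trend (0.0519) removed that call. AT3G02360 had 0.09 (SE 0.07) with sucrose and was not called. No interaction was called for these 4 loci by limma, which ranged from -0.15 to 0.04, and 0 passed at an unadjusted p under 0.05. Of all probe sets, 13.3% were called lower and 9.78% higher for the interaction, so most were not called either. Of 39 nuclear genes of the light reactions 6 were measured. All 6 fell in FUS3 with sucrose, against 19.6% of all probe sets, with log2 changes from -1.64 to -0.68. Without sucrose none of the 6 was called by limma, where 9.5% of all probe sets were called higher and 7.03% lower. At an unadjusted p under 0.05 without sucrose there was 1, PSBW of photosystem II, at -0.24 (SE 0.09, adjusted p = 0.0870 by limma). It was called there with quantile normalization (adjusted p = 0.0423), with array medians subtracted (0.0346), without the dimmest 40% of probe sets (0.0460) and without replicate 2 of FUS3 with sucrose (0.0266).

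**Figure D4:**
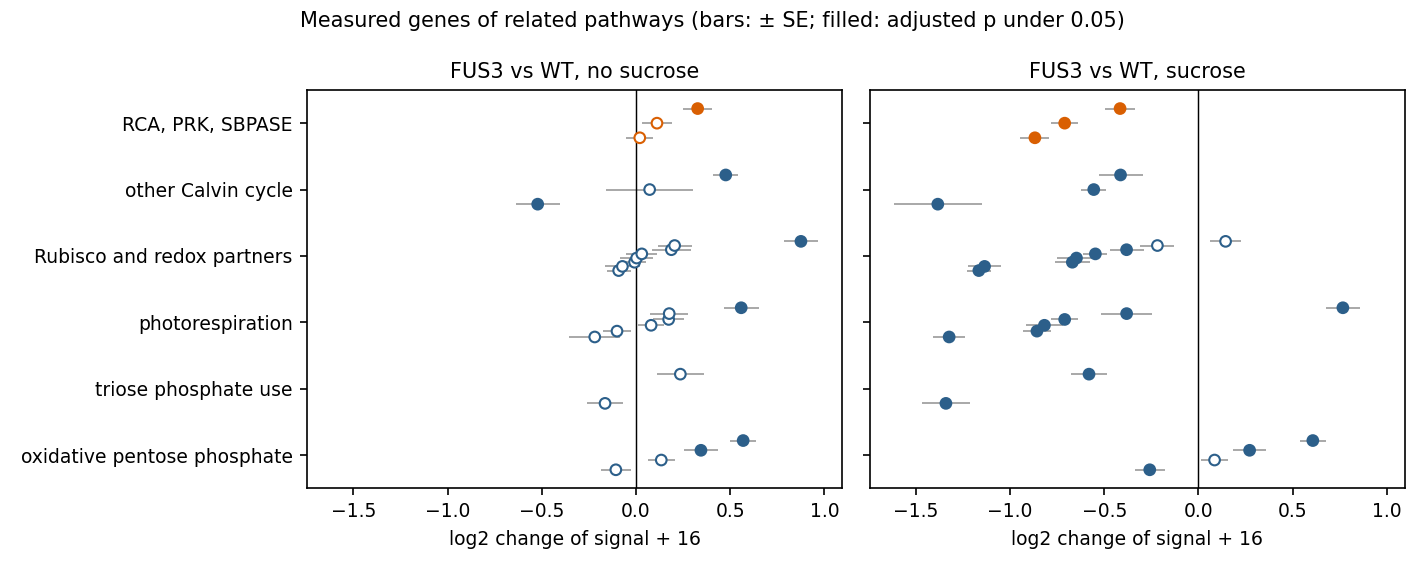
Log2 change of signal + 16 of FUS3 against WT (horizontal axis, the same in both panels) without sucrose (left) and with sucrose (right) for RCA, PRK and SBPASE (orange) and for measured genes of 5 related lists (blue). Bars are ± SE and filled points have an adjusted p under 0.05. With sucrose the 3 genes and most carbon fixation, redox partner and photorespiration genes lie left of 0, whereas the oxidative pentose phosphate genes lie on both sides of it.

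Genes whose pattern over the 12 arrays was most like each of the 3 were taken from the 5321 probe sets of 1 named gene with a mean log2 value of at least 9, by Pearson's r of log2 of the signal plus 16. The arrays fall into 4 groups, so r mainly reflects group means, and it is given as a description. Most like PRK were TRXF2 (r = 0.995), AT3G56060 (0.992), AT2G25830 (0.992), AT2G26500 (0.991) and AT3G48420 (0.991). Most like SBPASE were AT1G14345 (0.988), NdhN of the chloroplast NADH dehydrogenase-like complex (0.987), AT1G74070 (0.984), AT3G44970 (0.983) and AT2G03750 (0.981). AT1G14345 had 7202 ± 359 in FUS3 without sucrose and 5505 ± 292 in WT without sucrose, and 2621 ± 231 in FUS3 with sucrose and 5472 ± 238 in WT with sucrose, so it was also highest in FUS3 without sucrose.

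Most like RCA were AT2G33255 (r = 0.984), AT3G56290 (0.978), ATPC1 of the chloroplast ATP synthase (0.976), HCF101, an iron-sulfur assembly factor for photosystem I (0.973), and PSBY of photosystem II (0.973). The 3 genes were less like each other than like these. RCA and PRK had r = 0.952, RCA and SBPASE 0.953, and PRK and SBPASE 0.966. In the order of likeness to PRK, SBPASE was number 119 and RCA number 216. In the order of likeness to SBPASE, PRK was number 34 and RCA number 67. In the order of likeness to RCA, SBPASE and PRK were numbers 35 and 38.

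Some measurements of the whole arrays moved with the groups. No probe set of the table is named for FUS3, so its transcript was not analysed here, and the seed markers stand in as the check of the labels. Summed over the 3 measured of 9 seed markers (PAP85, AT1G03890 and OLEO3), the signal was 5217 to 5871 in FUS3 without sucrose and 133 to 167 in WT without sucrose, and 63156 to 66951 in FUS3 with sucrose and 88.6 to 102 in WT with sucrose. The group lowest in RCA, PRK and SBPASE was thus the one highest in seed transcripts. Of 6 mesophyll markers only LHCB4.1 was measured, at 15180 to 15531 in FUS3 with sucrose and 33760 to 36465 in WT with sucrose. Of 3 guard cell markers only the gene FMA was measured, at 80.9 to 156 in FUS3 with sucrose and 424 to 587 in WT with sucrose.

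The 4 measured of 6 root markers summed to 34481 to 34593 in FUS3 with sucrose and 29306 to 35295 in WT with sucrose, and 3 of them were called higher there (EXPA7, EXPA18 and AT4G30170, the last not when replicate 3 of WT with sucrose was left out, adjusted p of 0.0561 by limma). Of all probe sets, 18.9% were called higher in FUS3 against WT with sucrose. Most of these sums was the fourth marker, PYK10, at 27681 ± 110 in FUS3 with sucrose and 27559 ± 2826 in WT with sucrose. Its log2 change there was 0.01 (SE 0.09) and was not called. The 4 root markers summed to 34275 to 39074 in FUS3 without sucrose and 27936 to 32796 in WT without sucrose. The same 3 genes were called higher there, against 9.5% of all probe sets. In RNA of whole seedlings, fewer photosynthetic cells and less transcript per cell cannot be told apart. The signal of the 25S ribosomal RNA control was 9126 to 10465 in FUS3 with sucrose and 2600 to 4609 in WT with sucrose, and the part of this signal and of the markers in the falls was not tested. Controls read near both ends gave 9 ratios of the 3 prime over the 5 prime signal, of which 7 overlapped between FUS3 with sucrose and WT with sucrose and 2 did not. The GAPDH ratio, of a plant transcript, was 0.791 to 1.19 in FUS3 with sucrose and 0.921 to 1.26 in WT with sucrose, and overlapped. The ratios that did not overlap were of bacterial control sequences, bioB at 1.58 to 1.98 in FUS3 with sucrose and 1.099 to 1.43 in WT with sucrose, and lys at 1.49 to 1.87 in FUS3 with sucrose and 2.71 to 3.30 in WT with sucrose. Their part in the falls was not tested.

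Scaling touched the comparisons between media most. Array medians were 434 to 443 in FUS3 with sucrose and 387 to 398 in FUS3 without sucrose, and 415 to 429 in WT with sucrose and 375 to 385 in WT without sucrose. Subtracting them moved log2 changes by -0.15 for sucrose in each line, by -0.05 for FUS3 against WT on each medium. The calls of all probe sets for sucrose in FUS3, 4967 higher and 3972 lower, became 3257 and 5353, those for sucrose in WT, 3618 and 2301, became 2333 and 4235, and those for FUS3 against WT without sucrose, 2160 and 1598, became 1739 and 2091. Under each scaling RCA, PRK and SBPASE were called lower in FUS3 against WT with sucrose, in FUS3 with sucrose against FUS3 without, and in the interaction.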

How the data were processed

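Total RNA of 12 seedling samples, in 4 groups of 3 taken from the labels, was measured on 1-colour ATH1 arrays. The authors computed the deposited values, linear MAS5 signal intensity per probe set, with Affymetrix Expression Console, per the submitters' processing notes, and software versions were not stated. In the files each array has a trimmed mean near 1000.08, so the arrays share 1 scale. No detection call was used here, and the number of arrays limits the precision.

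From the deposited intensity, log2 of signal plus 16 was fitted for 22746 probe sets, leaving out 64 control probe sets, with limma 3.58.1 (lmFit, eBayes with a variance trend) in R 4.3.3, with 1 mean per group and no covariate. P-values were adjusted by Benjamini-Hochberg over all probe sets within each of 7 contrasts. Differences between members within an array were tested by exact two-sided permutation within strata, with Python 3.11.15. Genes were named through the array's probe table, from probe sets of 1 gene, and TAIR10.1 names. All measured list loci and the 5 genes most like each member could be named. The steps were tested on simulated data. For FUS3 against WT with sucrose, the fit called 59% of 100 probe sets given a log2 change of 1. It called 92% of 100 given a change of 2, with 10 false calls among the probe sets given no change. The changed probe sets were drawn at random from all 22746, so the shares are not those of the 3 members. No others were changed, whereas 8761 were called in the data for this comparison. The adjustment of p-values therefore differed, and the shares do not carry over to the data. A change under 1 can still be missed. The members and lists were chosen with earlier results of these data known. Lists covered the Calvin cycle, Rubisco and redox partners, photorespiration, triose phosphate use, the oxidative pentose phosphate pathway, light reactions, 11 regulators (0 measured), and mesophyll, root, seed and guard cell markers. Replicates are biological per the labels. Alternatives covered the added constant, normalization, dim probe sets, arrays fitted, moderation, the replicate number and leaving out each array.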

Additional observations from a re-analysis of the deposited data

Results flagged for a closer look

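The effect of FUS3 differed between media for all 3 genes, by the interaction itself in limma's model of 12 arrays. The log2 change of FUS3 against WT with sucrose minus that without was -0.53 for RCA (SE 0.11, adjusted p = 0.00347), -0.73 for PRK (SE 0.10, adjusted p = 1.23e-04) and -1.20 for SBPASE (SE 0.11, adjusted p = 2.69e-06). Of all probe sets, 13.3% were called lower and 9.78% higher for this interaction.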

How the results depend on the processing

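Of 438 values of RCA, PRK and SBPASE under the alternatives, 422 kept their direction and side of the threshold. Many alternatives cannot move a log2 change, such as the replicate block, the variance settings and leaving out an array outside the comparison. The direction is fixed there, and only the adjusted p can differ. SBPASE without sucrose, FUS3 against WT, was called under all alternatives run, at 0.29 to 0.36 with single arrays left out. With array medians subtracted, sucrose in WT was called for RCA (-0.26) and PRK (-0.34), and FUS3 without sucrose against WT with sucrose for RCA (0.31) and PRK (0.30). That difference between FUS3 without sucrose and WT with sucrose was also called without the dimmest 40% of probe sets and in a linear model without moderation, at 0.22 for RCA and 0.21 for PRK, as was sucrose in WT for PRK (-0.19). Quantile normalization lost the SBPASE call for FUS3 without sucrose against WT with sucrose (0.19, adjusted p = 0.114 by limma). Uncalled values changed sign for RCA (0.057) and SBPASE (0.068) for sucrose in WT with quantile normalization, and for PRK in FUS3 against WT without sucrose with quantile normalization (-0.037), with array medians subtracted (-0.034) and without replicate 1 of WT without sucrose (-0.010, in a leave-one-out range of -0.010 to 0.045). The cause was not tested.

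Of list counts, 985 stayed within 1.5 times and 35 moved. With array medians subtracted, 0 Calvin cycle genes were higher for sucrose in WT, 1 oxidative pentose phosphate gene was higher in FUS3 against WT with sucrose and 1 for sucrose in FUS3, and light reaction genes called lower numbered 1 for FUS3 against WT without sucrose and 5 for sucrose in WT. With quantile normalization, 1 photorespiration gene was lower for sucrose in WT, and light reaction genes called lower numbered 1 for FUS3 against WT without sucrose and 0 for sucrose in WT. Leaving out single arrays gave 1 to 2 oxidative pentose phosphate genes higher in FUS3 against WT on either medium, 0 to 1 lower with sucrose and 0 to 1 lower for sucrose in WT. It gave 0 to 1 light reaction genes lower in FUS3 against WT without sucrose, 1 to 3 lower for sucrose in WT, and 1 to 2 triose phosphate genes with a lower interaction. The differences between members within an array were rerun only with 1 or 64 added in place of 16. Neither constant can move signals this bright by much. All 12 values stayed on their side, which therefore says little about other choices of processing. Of all probe sets, 3758 were called in FUS3 against WT without sucrose and 2418 without replicate 1 of WT without sucrose. The split of calls for FUS3 without sucrose against WT with sucrose, 1713 higher and 2280 lower, became 2767 and 1542 with array medians subtracted, and that for FUS3 with sucrose against WT without sucrose, 6067 and 4774, became 4199 and 6816.

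With the replicate block, all 21 values of the members kept their call, such as SBPASE in FUS3 against WT with sucrose (-0.87, adjusted p = 1.1e-06 by limma), and 8959 probe sets were called there, against 8761 without the block. Of the listed genes, TRXF2 lost its call for sucrose in WT with the block (adjusted p = 0.0588 by limma), and the root marker PYK10 gained one for sucrose in FUS3 (0.0486). Deviations of same-numbered arrays correlated at -0.007 to 0.111, so the numbers were not taken to pair the samples. Every measured locus of the lists has 1 probe set named for it alone, so alternatives with another probe set could give no value. Listed loci without such a probe set were not measured.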
